A study of Mus musculus with 8 samples.

Results

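Expression of 9 genes of the tight junctions that seal the endolymph was measured in 8 normal CBA/CaJ mice, a strain common in hearing research. The genes were chosen by symbol, namely the claudins Cldn1, Cldn9, Cldn10, Cldn11, Cldn12 and Cldn14, occludin (Ocln), tricellulin (Marveld2) and the scaffold Tjp1. They are 9 of 18193 genes named by at least 1 probe set of their own, and 15 probe sets report them. Each of the 8 arrays held the pooled ears of 1 mouse, and all 8 form 1 group, normal cochlea, so there is no contrast between groups. Every animal received urethane (300 mg/kg) and was perfused with saline before the soft tissue was taken, which held the organ of Corti, the modiolus and the spiral ligament. The labels give no other treatment and no genotype beyond the strain, age, sex or batch.

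Endolymph, the potassium-rich fluid of the cochlear duct, is separated from perilymph by epithelial sheets whose cells are joined by tight junctions. Claudins are membrane proteins whose extracellular loops meet between neighbouring cells and set which ions pass. Occludin and tricellulin belong to another membrane protein family, with tricellulin at the corners where 3 cells meet, and Tjp1 (zonula occludens 1) ties these proteins to actin. In the cochlea such junctions seal the hair and supporting cells of the reticular lamina, the marginal cells of the stria vascularis and, through Cldn11, the strial basal cells, and loss of several of these genes causes deafness.

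Signals are in arbitrary units, as mean ± SD (n = 8) or for a single animal, and the mice are numbered without any order. Because probes differ in brightness, no gene is ranked against another by its signal. With 8 arrays the means have limited precision. Genes foreign to the ear gave each array a background threshold, the 95th percentile of their signals (49.8 to 81.5), and a gene above it on all 8 arrays was called detected. The 8 arrays correlated at r = 0.945 to 0.960 across probe sets, and 0 pairs were identical. The spiral ligament genes Coch (lowest 11569.7), Otos (lowest 9580.8) and Slc26a4 (lowest 8516.3), which mark the labelled tissue, were far above the thresholds on every array. Mouse 1 stood apart, with the highest signal for 34.1% and the lowest for 24.1% of the detected genes.

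Of the 9 genes 8 were detected, all but Cldn1, where 62.1% of all genes were (11289 of 18193). At the 99th percentile of the same background probe sets 6 of the 9 were above the threshold on all 8 arrays, where 48.5% of all genes were. Cldn10 then cleared it on 2 arrays and Cldn14 on 7. By probe set, 11 of 15 were detected, where 54.6% of the probe sets with 1 gene were.

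**Figure D1:**
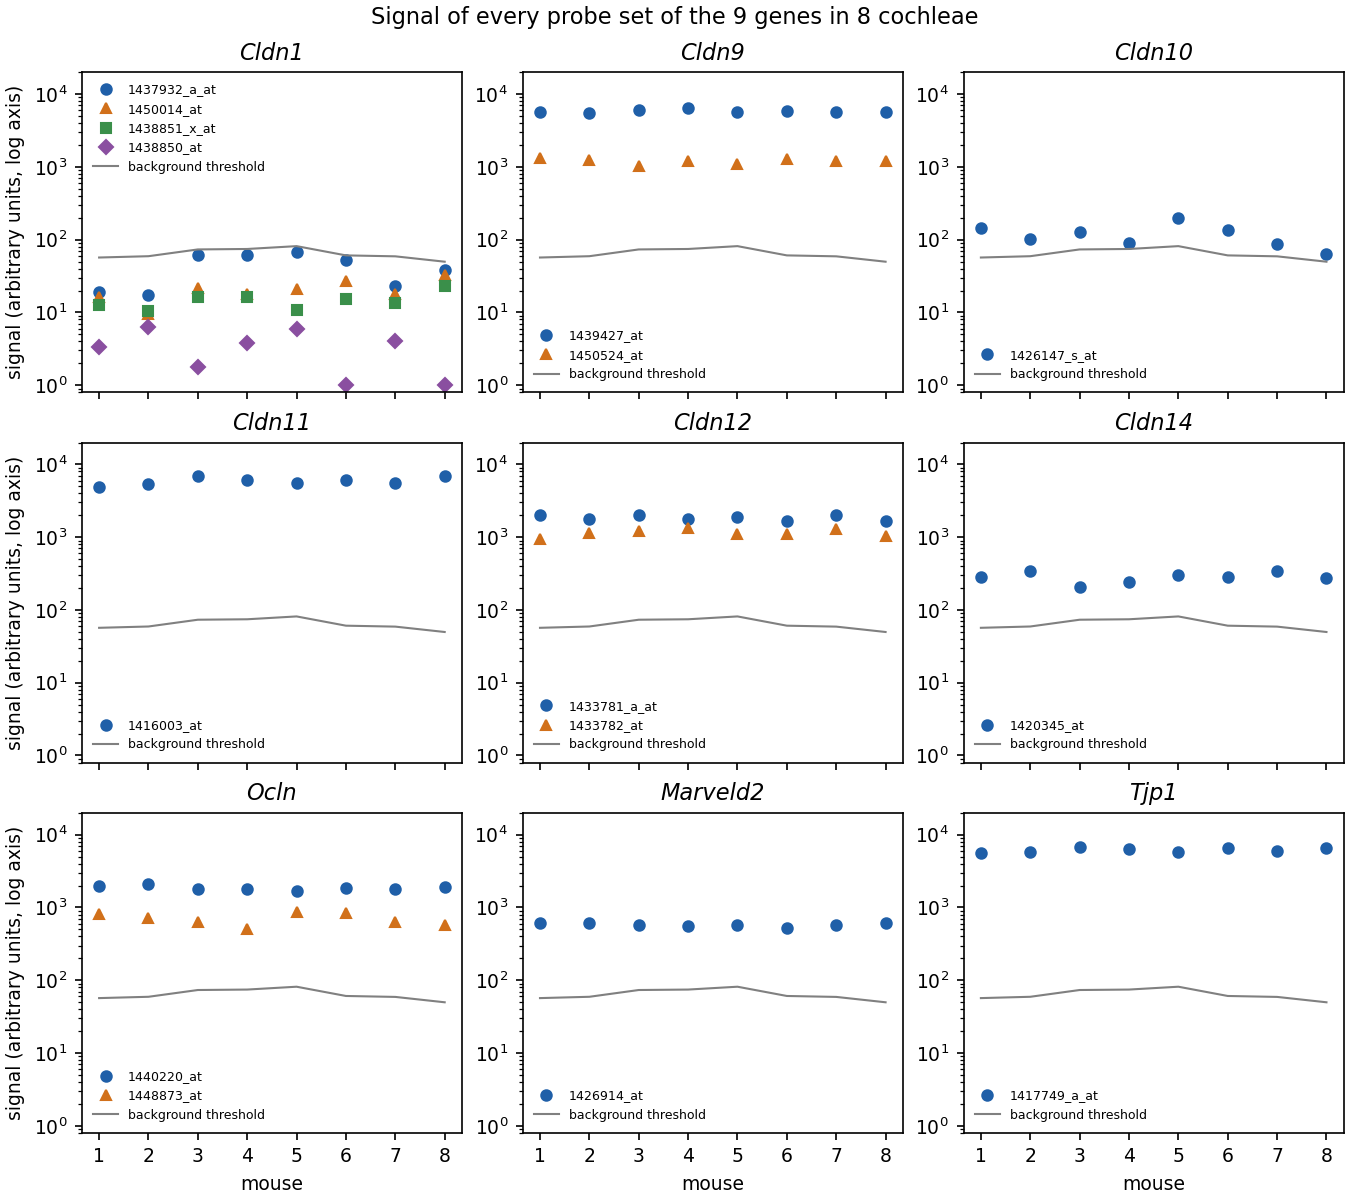
Signal (vertical, arbitrary units, log axis) of each probe set of the 9 genes in mice 1 to 8 (horizontal), 1 point per mouse, with the background threshold of each array as a grey line; signals under 1 are drawn at 1. All 4 Cldn1 probe sets lie below the line in every mouse. Cldn10 lies just above it, Cldn14 at 2.82 to 5.83 times it, and the other detected genes further above.

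Claudins of the organ of Corti come first. Cldn9 is made by hair cells and supporting cells, and mice with a mutant form lose hair cells as potassium leaks into the fluid around them. Its signal was 5825.65 ± 312 on its brightest probe set, with a lowest value of 5560.0 (mouse 2), a median of 5667.9 and a highest value of 6497.0 (mouse 4). Mouse 4 was highest, while the other 7 mice lay within 5560.0 to 5982.5. On its other probe set Cldn9 measured 1202 ± 96.2, from 1040.3 (mouse 3) to 1344.6 (mouse 1), and mouse 4 had 1217.6, close to the median of 1217. The high value of mouse 4 was thus seen on the brightest probe set alone.

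Cldn14 is a sealing claudin of the same junctions, and its loss causes deafness in people and mice. Its signal was 285 ± 46.0, with a lowest value of 207.2 (mouse 3), a median of 283.05 and a highest value of 345.7 (mouse 2). Mice 2 and 7 (338.6) were highest and mice 3 and 4 (240.8) lowest. In every mouse the signal was 2.82 to 5.83 times the array's threshold.

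Of 12 measured hair cell genes 8 were detected and 1 was above background on no array, and their summed signal ran from 15721 (mouse 6) to 20909 (mouse 1). The low sum of mouse 6 came mostly from Pvalb (3141.6, against a median of 5863.1) and Pcp4 (6187.6, against 6813.4). Calb1 was also lowest there (101.7, against 192.5), and Otof (441.3, against 503.15) was low. Myo6 (4440.5, against 4385.15) and Gfi1 (328.7, against 331.75) were near their medians. All detected hair cell genes but Myo6 were below their medians in mouse 6, and their mean log2 deviation was lowest there (-0.26). Among genes above background on some arrays only, Espn (89.6, against 77.65) and Slc26a5 (82.9, against 80.25) were above their medians there. Tmc1 (63.7, against 66.1), of the same kind, was below its median. Neuron genes, 10 of 10 detected, also had their lowest summed signal in mouse 6 (14413.6, against a median of 28274.9). In that mouse Cldn9 measured 5950.4 and Cldn14 282.1, both inside the range of the other mice. In whole tissue, fewer cells of a type and less RNA per cell cannot be told apart.

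Cldn11 forms the tight junctions of the strial basal cells, and mice without it are deaf with a low endocochlear potential. Its signal was 5964 ± 721, with a lowest value of 4920.4 (mouse 1), a median of 5890.85 and a highest value of 6969.2 (mouse 3). Mice 3 and 8 (6874.3) were high and mice 1 and 2 (5354.2) low, a 1.42-fold range.

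Tjp1 encodes the scaffold that binds the tails of claudins and occludin. Its signal was 6181 ± 448, with a lowest value of 5546.3 (mouse 1), a median of 6230.7 and a highest value of 6780.8 (mouse 3). The same 2 mice, 3 and 8 (6591.9), were high, and mice 1 and 2 (5753.2) were low, over a 1.22-fold range.

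Across the 8 mice Cldn11 and Tjp1 followed nearly the same order, with Pearson's r = 0.965 (two-sided exact permutation p = 0.000174) and Spearman's rho = 0.952 (exact permutation p = 0.00114). This pair was 1 of 90276 pairs of a detected barrier gene and a detected gene that were tested, and it did not pass after Benjamini-Hochberg adjustment over them (adjusted exact permutation p = 0.0756 for r and 0.191 for rho). None of the 90276 pairs did by either measure, while 9855 (10.9%) had an unadjusted exact permutation p under 0.05 for r and 9022 for rho. Without the mice farthest from the median of Cldn11, mice 1 and 3, r was 0.922. Without mouse 1 alone it was 0.946.

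Many other genes followed the same order of mice. Cldn11 had r of at least 0.9 with 154 detected genes and Tjp1 with 125, against a median of 30 over all detected genes. With 261 and 228 genes r was -0.9 or lower, against a median of 18. The median log2 signal of all detected genes ran nearly opposite to both genes. It was lowest in mice 8 (9.54) and 3 (9.55) and highest in mice 2 (9.67) and 1 (9.64). The part of such array-wide differences in the correlation of Cldn11 with Tjp1 was not tested. The genes most like Cldn11 over the 8 mice were Myl12a (r = 0.986), Tceal9 (0.984) and Cryab (0.983), and those most like Tjp1 were Fscn1 (0.992), Vbp1 (0.983) and Suco (0.977). Each of these 6 was lowest in mouse 1, and 4 of them, Myl12a, Tceal9, Cryab and Fscn1, were highest in mouse 3. Genes picked for a high r tend to share such extremes, and mouse 1 was lowest for 24.1% of all detected genes.

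**Figure D2:**
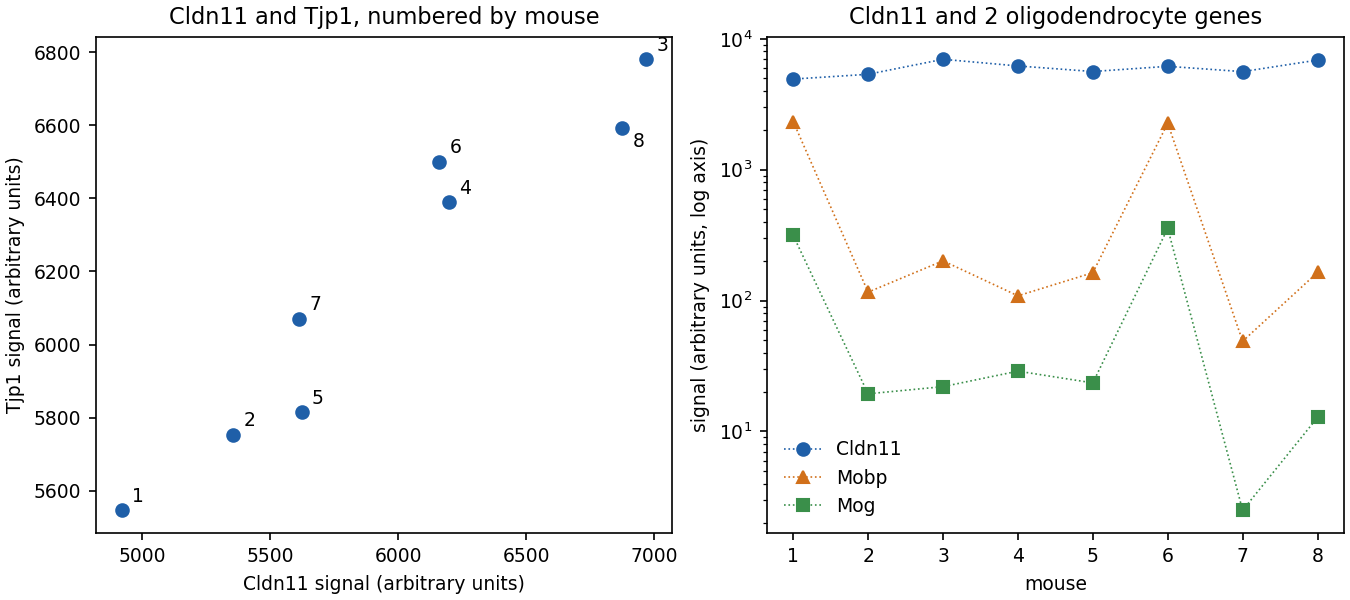
Left, Tjp1 signal against Cldn11 signal (both in arbitrary units, linear axes that do not start at 0), 1 numbered point per mouse; right, signals of Cldn11, Mobp and Mog (log axis) by mouse, with dotted lines only to guide the eye. Mouse 1 is lowest and mouse 3 highest for both genes on the left, and on the right Mobp and Mog are highest in mice 1 and 6 and Cldn11 is not.

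The other strial basal cell markers measured, 3 genes, were all detected, with a summed signal from 11441 (mouse 2) to 14311 (mouse 8). The nuclear receptor Nr2f2 ran from 3142 (mouse 2) to 5572 (mouse 8), the glucose transporter Slc2a1 from 7157 (mouse 7) to 8316 (mouse 4), and Sox8 from 386 (mouse 4) to 793 (mouse 7). Mouse 8, high for Cldn11, was highest for Nr2f2 and next to the highest for Slc2a1 (8064.9) and Sox8 (674.3). Mouse 3, highest for Cldn11, was above the median for Nr2f2 (4631.7, against 3948.95) and below the median for Slc2a1 (7659.2) and Sox8 (556.5). The part of basal cell number in the Cldn11 signal was not tested.

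Cldn11 is also a protein of central myelin, made by oligodendrocytes, and the signals of some genes of that tissue differed between the mice. Of 13 measured oligodendrocyte and central nervous system genes 3 were detected and 4 were above background on no array, and their summed signal ran from 2721 (mouse 4) to 7644 (mouse 6). The myelin gene Mobp reached 2331 (mouse 1) and 2262 (mouse 6), while the other mice had 48.9 to 201.2. Mog measured 314.5 and 355.8 in mice 1 and 6 and at most 28.9 elsewhere. Of the 3 detected genes, Aqp4 (2187.7) and Gfap (1292.3) were highest in mouse 6 and next highest in mouse 1. The third, Pcp2, ran only from 984.9 (mouse 4) to 1152.9 (mouse 7). Cldn11 was lowest in mouse 1 and somewhat above its median in mouse 6 (6159.0). The part of central myelin in the Cldn11 signal was not tested.

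To show the sequence context of this pair of genes, the 250 bases before the annotated start of each gene are given 5′ to 3′ on the gene's strand, from RefSeq on build GRCm38.p6. They lie at chr3:31149670-31149919 (plus strand) for Cldn11 and chr7:65371245-65371494 (minus strand) for Tjp1. Capitals mark the CCAAT box (CCAAT, or ATTGG on the other strand) and the GC box (GGGCGG, or CCGCCC).
Cldn11: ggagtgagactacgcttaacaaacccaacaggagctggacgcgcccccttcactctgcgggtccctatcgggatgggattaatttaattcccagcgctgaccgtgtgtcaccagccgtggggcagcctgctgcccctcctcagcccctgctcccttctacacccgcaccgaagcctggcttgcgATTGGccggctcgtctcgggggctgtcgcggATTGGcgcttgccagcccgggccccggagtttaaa
Tjp1: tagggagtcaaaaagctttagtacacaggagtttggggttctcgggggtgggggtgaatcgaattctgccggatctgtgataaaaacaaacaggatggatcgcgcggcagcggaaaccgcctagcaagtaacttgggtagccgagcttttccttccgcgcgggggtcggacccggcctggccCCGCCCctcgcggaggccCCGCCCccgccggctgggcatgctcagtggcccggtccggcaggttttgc
The Cldn11 window held 2 CCAAT boxes and 0 GC boxes, and the Tjp1 window 0 CCAAT boxes and 2 GC boxes. Of 32851 windows of the same length 33.8% held a CCAAT box and 32.7% a GC box. Neither window held TATAAA, found in 12.4% of windows, or CACGTG, found in 6.02%, on either strand. The GC content was 63.6% for Cldn11 and 63.2% for Tjp1. The 2 windows thus shared none of the 4 motifs searched, which says only that these letters are not in this stretch.

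Cldn12 is a broadly expressed claudin. Its signal was 1866 ± 159 on its brightest probe set, with a lowest value of 1670.6 (mouse 8), a median of 1855 and a highest value of 2043.3 (mouse 3). On the other probe set it measured 1151 ± 131, from 943.2 (mouse 1) to 1335.0 (mouse 4). Mouse 1 was near the top on the first (2033.2) and lowest on the other.

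Cldn10 encodes a claudin whose splice forms make pores for cations or for anions, known best from kidney. Its signal lay close to background, at 119 ± 43.3, with a lowest value of 62.9 (mouse 8), a median of 114.25 and a highest value of 201.2 (mouse 5). The signal was 1.20 to 2.58 times the array's threshold. Mouse 5 was high and mouse 8 low, a 3.20-fold range, and the thresholds themselves were highest in mouse 5 (81.5) and lowest in mouse 8 (49.8).

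Genes of other tissues were also high in mouse 5. Of 12 measured genes of airway and middle ear epithelium, 3 of them claudins, 7 were detected and 2 were above background on no array. Their summed signal ran from 6173.5 (mouse 2) to 27288.5 (mouse 5), of which Bpifa1 alone gave 18386.6 in mouse 5. The 3 claudins were not highest in mouse 5: Cldn3 and Cldn7 were highest in mouse 1 and Cldn4 in mouse 2. In mouse 5 Cldn7 (2305.7, against a median of 2079.15) and Cldn4 (139.6, against 119.95) were above their medians. Cldn3 (754, against 798.6) was below its median there. The ciliated cell gene Dynlrb2 measured 2093 in mouse 5 and at most 124 elsewhere. Bone genes, 6 of 6 detected, summed to 5165 (mouse 1) to 11609 (mouse 6) and followed Cldn10 in some mice only. Their mean log2 deviation was 0.62, 0.57 and 0.47 in mice 6, 3 and 5, and -0.67 and -0.62 in mice 8 and 1. In mouse 1 Cldn10 was next to its highest (146.7). The genes most like Cldn10 over the 8 mice were the collagen gene Col1a2 (r = 0.950), the complement inhibitor Serping1 (0.950) and the parathyroid hormone receptor Pth1r (0.949). Picked for their high r, they shared the extremes of Cldn10, highest in mouse 5 and lowest in mouse 8. The part of these tissues in the Cldn10 signal was not tested.

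**Figure D3:**
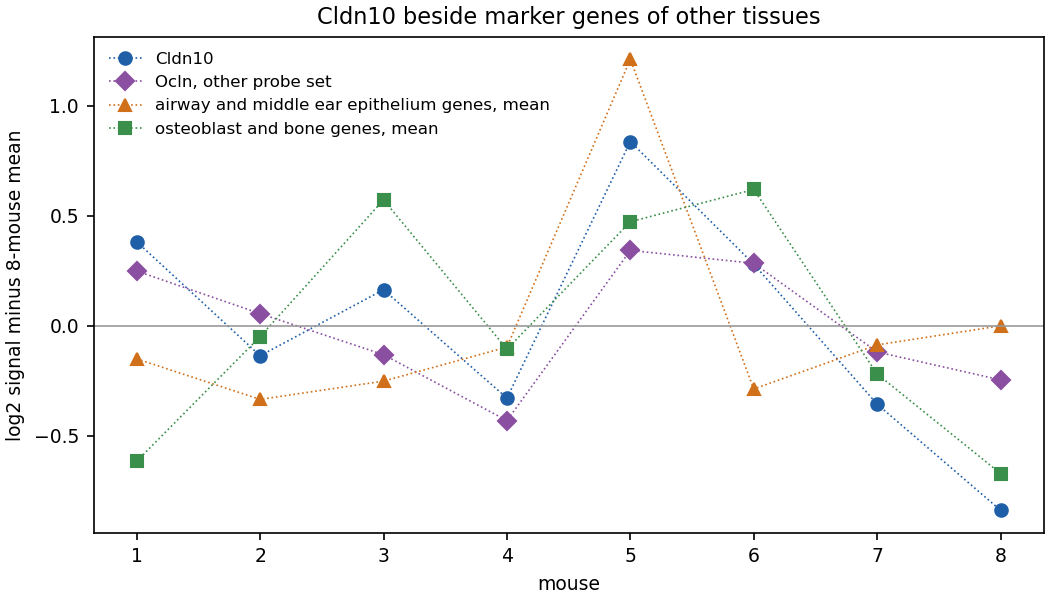
Deviation of log2 signal from the mean of the 8 mice (vertical) by mouse (horizontal) for Cldn10, for the other probe set of Ocln, and as the mean over 7 detected airway and middle ear epithelium genes and 6 bone genes; dotted lines only guide the eye. Cldn10 and the airway genes are highest in mouse 5, and Cldn10 and the bone genes are lowest in mouse 8.

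Cldn1, a claudin of the skin barrier and of many epithelia, was above the threshold on 0 of 8 arrays with any of its 4 probe sets, where 26.6% of all genes were above it on no array. Its brightest probe set measured 42.7 ± 20.8, with a lowest value of 17.2 (mouse 2), a median of 45.75 and a highest value of 68.0 (mouse 5). In mouse 5 this was still below the threshold of 81.5, and over all mice the signal reached at most 0.871 times the threshold. Values below background have no order, and they do not show that the gene is silent in the cochlea. Of 8 measured skin and keratinocyte genes 7 were likewise above background on no array, all but Krt10.

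Occludin and tricellulin follow. Ocln, whose loss leaves mice deaf, measured 1861 ± 132 on its brightest probe set, with a lowest value of 1661.1 (mouse 5), a median of 1825.0 and a highest value of 2110.8 (mouse 2). On the other probe set it measured 699 ± 132, from 509.6 (mouse 4) to 871.7 (mouse 5). Mouse 5 was thus lowest on the first and highest on the other.

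Marveld2, mutated in a recessive human deafness, measured 584 ± 34.5, with a lowest value of 525.6 (mouse 6), a median of 581.8 and a highest value of 620.3 (mouse 1). Mice 1, 2 (617.5) and 8 (618.1) lay together at the top, and the whole range was 1.18-fold. Ocln and Marveld2 are neighbours on the chromosome with no other coding gene between them in the RefSeq annotation. Over the 8 mice they had r = 0.534 (exact permutation p = 0.178, adjusted p = 0.673), which did not pass the test.

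The genes most like the remaining ones over the 8 mice were Srsf3 for Cldn9 (r = 0.951), D6Wsu163e for Cldn12 (0.946), Rexo5 for Cldn14 (0.950), Rab32 for Ocln (0.936) and Coa6 for Marveld2 (0.986). None of these pairs passed after adjustment over the 90276 pairs, with adjusted exact permutation p from 0.101 to 0.164. Of the 28 pairs among the 8 detected barrier genes, 8 had r above 0 and 20 below it. The 28 pairs share genes, and the same split over all 90276 pairs is not given, so no meaning is drawn from it. An unadjusted exact permutation p under 0.05 was found for 1 of the 28 by r and 4 by rho. Over the 90276 pairs it was found for 9855 (10.9%) by r and 9022 by rho. Besides Cldn11 with Tjp1, the 3 pairs Cldn11 with Cldn14 (rho = -0.833), Cldn9 with Cldn14 (rho = -0.766) and Cldn14 with Tjp1 (rho = -0.762) had an unadjusted exact permutation p under 0.05, for rho only. Their adjusted exact permutation p was 0.360, 0.436 and 0.436. Cldn14 was thus lowest in mouse 3, where Cldn11 and Tjp1 were highest.

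Where a gene had 2 detected probe sets, the order of the mice was not shared between them. The correlation over the 8 mice was -0.0940 for Cldn9 (exact permutation p = 0.830), 0.0764 for Cldn12 (exact permutation p = 0.857) and -0.106 for Ocln (exact permutation p = 0.816). Spearman's rho was -0.108, 0.167 and -0.0714 (exact permutation p = 0.808, 0.703 and 0.882). Their adjusted exact permutation p over all 7737 such pairs on the array was 0.921, 0.935 and 0.914 for r. On the array as a whole 4.42% of pairs passed after adjustment and 23.8% had an unadjusted p under 0.05, with a median r of 0.295. Without the mice farthest from the median r was 0.274, -0.222 and 0.340, so its sign turned for all 3 genes. Differences between mice on a single probe set of these genes were therefore not repeated on the other. For Cldn10, Cldn11, Cldn14, Marveld2 and Tjp1 only 1 probe set was measured, and no such comparison exists.

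**Figure D4:**
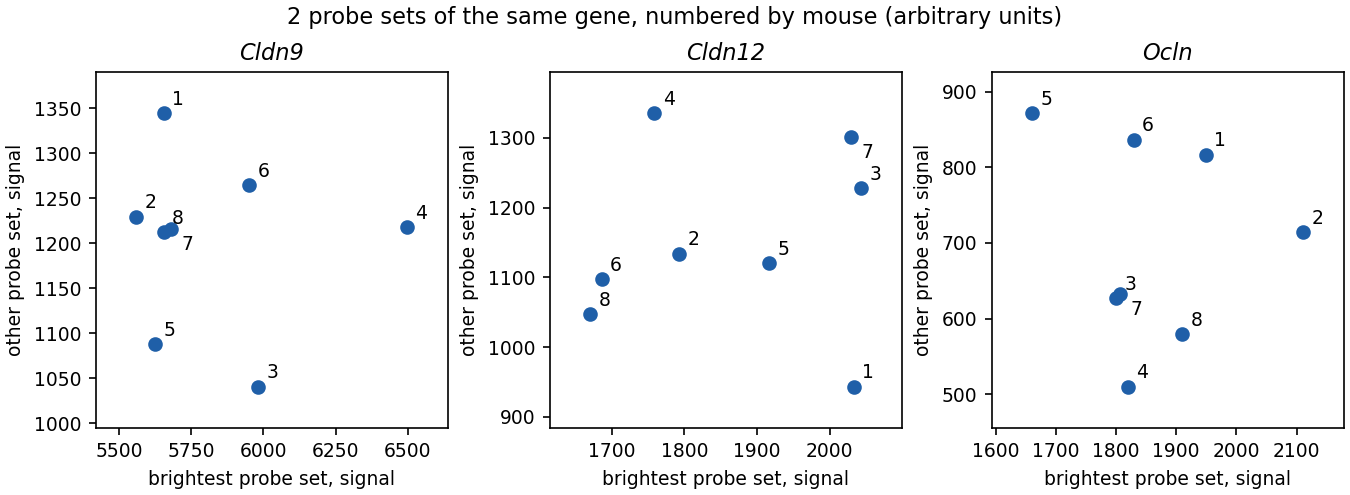
Signal of the other detected probe set (vertical) against the brightest one (horizontal), both in arbitrary units on linear axes that do not start at 0, for Cldn9, Cldn12 and Ocln, with 1 numbered point per mouse. The points form no line in any of the 3 panels: mouse 4 is highest for Cldn9 and mouse 5 lowest for Ocln on the horizontal axis only.

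The choice of probe set also set which genes looked alike. Read by its other probe set, Ocln had r = 0.810 with Cldn10 (exact permutation p = 0.0147) and rho = 0.810 (exact permutation p = 0.0218), and both were highest in mouse 5. Read by its brightest probe set, r was -0.426 (exact permutation p = 0.284). This reading was added after the values were seen, and it did not pass over the 33864 pairs of the other probe sets (adjusted exact permutation p = 0.512).

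The spread between mice, as the SD of log2 signal, was small for most of the genes. Its median over the 8 detected genes was 0.11, against 0.18 over all detected genes, and 6 of the 8 were below the latter. Bright genes vary less, with a median SD from 0.25 in the lowest of 4 equal signal classes of detected genes to 0.13 in the highest, and 6 of the 8 were also below the median of their own class. Marveld2 (0.09) had a smaller SD than all but 2.66% of the genes in its class, Cldn9 (0.07) than all but 14.0% and Ocln (0.10) than all but 15.5%. The SD of Cldn9 was 0.12 on its other probe set. On its brightest one it was 0.04 without mouse 4 and 0.11 with the arrays scaled to a common median. With that scaling the SD of Tjp1 rose from 0.11 to 0.15 and that of Cldn11 from 0.17 to 0.22. Cldn11 (0.17) was above the median of its class (0.13), and Cldn10 (0.52) had a larger SD than 96.0% of its class. The small spread of Ocln holds for its brightest probe set, since the SD on the other was 0.28. Cldn12 had an SD of 0.12 on its brightest probe set and 0.17 on the other, where the median of its class was 0.16.

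**Figure D5:**
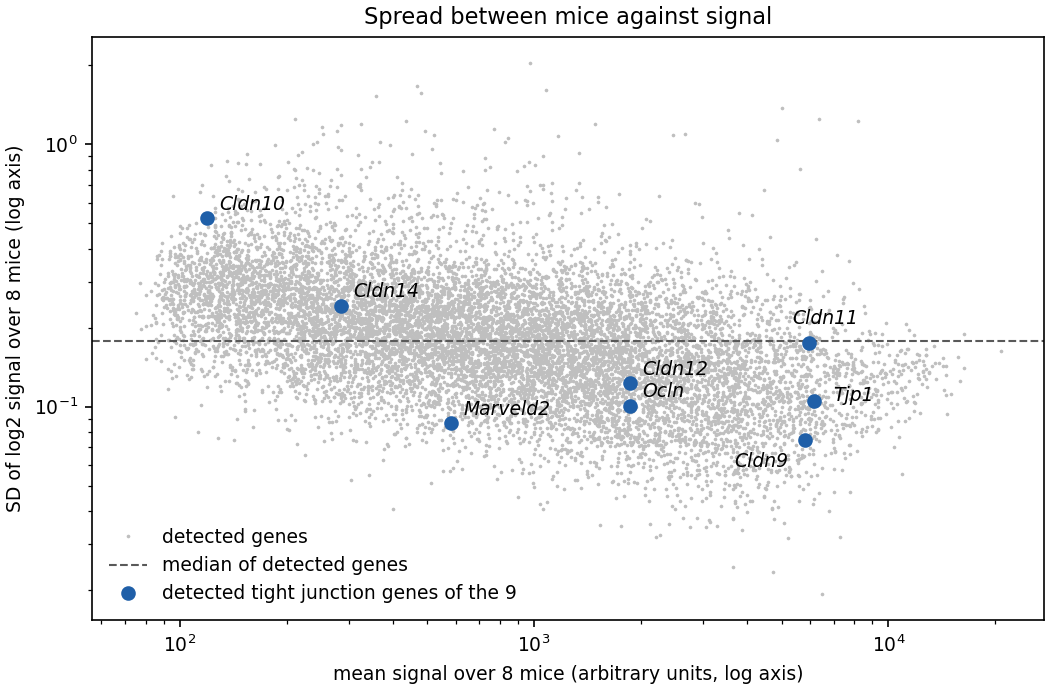
SD of log2 signal over the 8 mice (vertical, log axis) against mean signal (horizontal, arbitrary units, log axis) for all 11289 detected genes in grey and the 8 detected tight junction genes in blue, with the median SD of the detected genes, 0.18, as a dashed line. Cldn10 and Cldn14 lie above the line, Cldn11 just under it and the other 5 below it.

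Other genes of the tight junction were mostly detected too. Of 48 measured, 38 were detected, 5 were above background on some arrays and 5 on none, where 62.1% of all genes were detected. Their median SD, over the detected ones, was 0.18 on the log2 scale.

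Among 16 other claudins 8 were detected. They included Cldn8, with a lowest value of 2037.3 (mouse 1), a median of 2726.5 and a highest value of 2960.9 (mouse 6), Cldn7 (1922.9 to 2315.3), Cldn3 (585.9 to 1086.5) and Cldn23 (614.1 to 950.0). Cldn5, the claudin of endothelial cells, ran from 513 (mouse 3) to 982 (mouse 1). The other endothelial genes, 7 of 9 detected, had their lowest and highest summed signals in the same mice (5499.8 in mouse 3 and 6991.8 in mouse 1). Single genes differed. Emcn, which made up most of the sum, was highest in mouse 1 (4492.7), as was Tek (1034.5). Tek (600.8), Kdr (139.6) and Flt1 (627) were lowest in mouse 3, but Cdh5 (134.6) and Erg (121.2) were highest there. The part of endothelial cells in the Cldn5 signal was not tested. Cldn15, Cldn16, Cldn18 and Cldn34c1 were among the 5 above background on no array.

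The 3 claudins above background on some arrays only, named here after their values were seen, were Cldn2 (2 arrays), Cldn13 (4 arrays) and Cldn19 (5 arrays). Cldn13 ran from 15 (mouse 7) to 194 (mouse 3), and was also high in mouse 6 (183). Erythroid genes, 5 measured and 1 detected, had their lowest summed signal in mouse 7 (1313) and their highest in mouse 6 (11834). The part of blood cells in the Cldn13 signal was not tested. Cldn19, which is also a gene of myelinating Schwann cells, ran from 32.1 (mouse 3) to 107 (mouse 4). The other Schwann cell genes, 5 of 5 detected, also had their lowest summed signal in mouse 3 (16802.9) and their highest in mouse 1 (22435.1). Pmp22 and Mbp, which made up most of the sum, were highest in mouse 1, and Egr2 and Ncmap in mouse 4. The mean log2 deviation of these genes was highest in mouse 4 (0.23, against 0.06 in mouse 1) and lowest in mouse 3 (-0.36). The part of Schwann cells in the Cldn19 signal was not tested.

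Among the other membrane proteins 9 of 10 were detected. They included Jam3 (1137.0 to 1551.9), Jam2 (1199.2 to 1448.2), the coxsackievirus and adenovirus receptor Cxadr (952.6 to 1490.6) and F11r (1013.8 to 1210.2). The angulins, which recruit tricellulin to the corners between cells, were all 3 detected. Ildr1, mutated in another recessive deafness, ran from 279.3 (mouse 1) to 425.0 (mouse 3), Lsr from 219.6 (mouse 8) to 432.2 (mouse 1) and Ildr2 from 352.0 (mouse 5) to 628.1 (mouse 1). Mouse 1, highest for Marveld2, was thus highest for Lsr and Ildr2 and lowest for Ildr1. Of 19 scaffold genes 18 were detected, including Ybx3 (6621.9 to 7633.5), Mpdz (3607.4 to 4109.0), Arhgef2 (1777.3 to 2862.2) and Amotl2 (1385.9 to 2038.4). Mpdz, a scaffold with many PDZ domains that binds claudins, had the smallest spread of these 4, with an SD of 0.06 on the log2 scale.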

How the data were processed

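RNA of the cochlear soft tissue of 8 mice was hybridised to Affymetrix mouse arrays after amplification and biotin labelling, per the labels' protocols. The authors deposited linear intensities, 1 for each probe set. MAS5 is the tool that the submitters' processing notes name, with no version. All arrays had the same trimmed mean, 500.0, and the scaling is read from the values alone. Gene names came from the platform annotation: 34945 of 45101 probe sets had a single gene, 932 had more and 9224 had no gene, and 0 other columns of samples were in the file. Each gene took the probe set of highest mean (_x_at probe sets last), as log2 of the signal, with signals under 1 set to 1. The background came from 145 probe sets of 121 genes, receptors of smell and pheromones and genes of organs other than the ear, of which 3 were detected. No detection calls were used.

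Correlations were tested by exact permutation over all 40320 pairings of the mice, two-sided, with Benjamini-Hochberg adjustment and a threshold of 0.05; the smallest possible p is 2.48e-05. Each array is a separate mouse per the labels. A p-value is the share of pairings of the mice whose r or rho is at least as large in absolute value. Differences between the arrays include assay error, and the SDs carry no test. The tests were tested on simulated data. Alternatives were quantile normalization, median scaling, a pseudocount of 32, other probe set and detection rules, thresholds at the 90th and 99th percentiles and each mouse left out. The 9 genes and all lists were chosen with earlier results of these data known. Named are the 9 genes, per role of the other tight junction genes the 4 detected with the highest signal over background and up to 4 above it on no array, Ildr1, Lsr and Cldn5, and the genes of highest r (up to 3 for each of the 9); marker genes were named where their mice bore on a result, after their values were seen. Protein features were planned and are not analysed here. Of the 9 genes 8 had an entry in the RefSeq promoter table. The work used scipy 1.17.1, pandas 2.3.3, numpy 2.4.6, Python 3.11.15 and, for plots, matplotlib 3.10.9.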

Additional observations from a re-analysis of the deposited data

Results flagged for a closer look

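The highest signal of Cldn9 on its brightest probe set, in mouse 4, stood far from the other 7 mice. Its gap to the next mouse was 0.530 of the whole log2 range, above Dixon's 95% critical value for 8 samples. Chance alone flags about 1 in 20 such groups, and on these arrays 12.7% of the detected genes passed the same value. The other probe set of Cldn9 did not single out mouse 4.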

How the results depend on the processing

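The detection of 8 of the 9 genes stood under 14 alternatives except that 6 were detected at the 99th percentile, where Cldn10 and Cldn14 fell short. The correlation of Cldn11 with Tjp1 kept its sign under all 14, from 0.882 (quantile normalization) to 0.981 (median scaling), and 0.946 to 0.978 with a mouse left out, and its adjusted exact permutation p ranged from 0.0677 to 0.457, so it passed under none. Median scaling shifts both genes alike on each array, so the higher r under it does not test the pair. With quantile normalization the unadjusted exact permutation p was 0.00697, against 0.000174 in the main setting. The median spread of the detected genes, 0.11, was 0.13 (0.132) with median scaling, 0.12 (0.125) with the mean of all probe sets and 0.12 (0.123) with no filter, and 0.111 to 0.120 with a mouse left out. The number of probe set pairs passing on the whole array, 342, was 225 with quantile normalization, 523 with median scaling, 137 with no filter and 0 to 99 with a mouse left out, where the smallest possible p is 0.000198. The 3 probe set pairs of Cldn9 (r from -0.318 to 0.141), Cldn12 (-0.134 to 0.543) and Ocln (-0.338 to 0.324) passed in none of the 13 settings run for them. Of 48 other tight junction genes 33 to 41 were detected. No paired analysis was possible because there is 1 group. Depth has no counterpart on arrays; signals near background, as those of Cldn10, are the least certain.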
